A study of Arabidopsis thaliana with 30 samples.

Results

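The 10 genes described here encode the subunits of the nuclear exosome targeting (NEXT) complex and parts of the nuclear RNA exosome of Arabidopsis thaliana. They were chosen by gene identifier and are HEN2 (AT2G06990), MTR4 (AT1G59760), RBM7 (AT4G10110), ZCCHC8A (AT5G38600), ZCCHC8B (AT1G67210), RRP4 (AT1G03360), RRP41 (AT3G61620), RRP44A (AT2G17510), RRP6L1 (AT1G54440) and RRP6L2 (AT5G35910). All 10 were found among the 34262 genes of a first RNA-seq experiment at 22 °C and among the 32832 genes of a second one at 20 °C. All 10 had enough reads to be tested, among 19506 genes tested at 22 °C and 19454 at 20 °C.

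The first experiment compared hen2-2 with WT and the second compared se-2 hen2-2, hen2-2 and se-2 with WT. RNA came from rosette leaves of 4-week-old plants of the Columbia accession, with 3 biological replicates for every genotype and temperature, and ribosomal RNA was depleted before stranded libraries were made. hen2-2 and se-2 are each a single T-DNA insertion line, in HEN2 and in SERRATE (SE), and the double mutant was obtained by crossing them. The values are counts over whole genes or transcripts, so where along HEN2 or SE the remaining reads of the mutants fell was not measured here.

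The exosome is a barrel of subunits with nucleases attached to it that degrades RNA from the 3′ end. In the nucleus it needs RNA helicases, which unwind the substrate and feed it into the barrel. In plants HEN2 is the helicase of the nucleoplasm and works within NEXT together with the RNA-binding protein RBM7 and the zinc-knuckle proteins ZCCHC8A and ZCCHC8B, whereas MTR4 is the helicase of the nucleolus and is best known for ribosomal RNA processing. SE is a zinc finger protein known for its part in the processing of primary miRNAs.

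Libraries held 62.6 to 105.5 M estimated reads at 22 °C and 47.7 to 156.6 M counts at 20 °C (M, 1000000), of which chloroplast genes took 50.6 to 81.5%. At 20 °C 6 libraries held over 100 M counts, replicates 1 and 2 of hen2-2 and of WT and replicate 1 of se-2 hen2-2 and of se-2, so depth and genotype were partly mixed. The 3 leaf markers (RBCS1A, CAB1 and CA1) summed to 2210 to 3220 counts per M counts (CPM) in hen2-2, against 1810 to 3460 CPM in WT, at 22 °C. At 20 °C they summed to 1980 to 2220 CPM in se-2 hen2-2, below all other libraries of that experiment, with 2640 to 3520 CPM in hen2-2 and 2390 to 3320 CPM in se-2, against 2750 to 3770 CPM in WT. Flower markers summed to 0 to 1.04 CPM, and root, seed and pollen markers to lower values. In RNA from whole leaves, fewer cells of a type and less RNA per cell cannot be told apart. SE itself was lower where it was mutated, at 2.61, 3.02 and 3.26 CPM in se-2 hen2-2 and 2.71, 2.45 and 3.07 CPM in se-2, against 5.59, 5.92 and 6.84 CPM in WT (edgeR adjusted p = 0.0125 with a log2 fold change of -1.05 in the double mutant, and adjusted p = 0.0235 with -1.16 in se-2, standard error 0.18 each). Over the 12 fits that left out a library, the adjusted p of SE was 0.0148 to 0.0523 in the double mutant, above the threshold in the fits without its replicate 2 or WT replicate 2, and 0.0271 to 0.125 in se-2, above it in the fits without any se-2 or WT library or hen2-2 replicate 2 (edgeR).

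Each gene is given as CPM in replicates 1, 2 and 3, scaled with the TMM library sizes of edgeR. Levels in CPM compare libraries of 1 experiment and are not corrected for gene length. A change was called at an adjusted p under 0.05 in edgeR's quasi-likelihood test, adjusted by the Benjamini-Hochberg method over all genes tested, and all 12 libraries of the 20 °C experiment shared a fit. The p-values measure the spread between the biological replicates of a genotype.

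HEN2 lies on the plus strand of chromosome 2 from 2894904 to 2902020 (TAIR10.1). At 22 °C it had 2.57, 2.82 and 3.17 CPM in hen2-2, against 8.34, 8.82 and 7.29 CPM in WT. At 20 °C it had 2.29, 2.45 and 4.36 CPM in se-2 hen2-2, 2.30, 2.58 and 2.94 CPM in hen2-2 and 6.83, 8.67 and 8.07 CPM in se-2, against 6.28, 8.11 and 6.61 CPM in WT. All 9 libraries that carry the hen2-2 insertion lay below all 9 libraries that do not, within each experiment, and replicate 3 of the double mutant was the highest of the 9. That replicate 3 held 246 HEN2 counts, against 285 and 115 in the other two libraries of the double mutant, which held 138.0 and 47.7 M counts.

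HEN2 fell by 1.52 on the log2 scale in hen2-2 at 22 °C (edgeR adjusted p = 0.0128, standard error 0.14) and by 1.43 in hen2-2 at 20 °C (edgeR adjusted p = 0.0379, standard error 0.25). In se-2 hen2-2 it fell by 1.21 relative to WT (edgeR adjusted p = 0.0262, standard error 0.25) and by 1.38 relative to se-2 (edgeR adjusted p = 0.0264, standard error 0.25). The log2 fold change of se-2 against WT was 0.17 (edgeR adjusted p = 0.991, standard error 0.24) and that of se-2 hen2-2 against hen2-2 was 0.22 (edgeR adjusted p = 0.862, standard error 0.25). The interaction of the mutations, which compares the effect of hen2-2 with and without se-2, was 0.05 (edgeR adjusted p = 1.0, standard error 0.35). Leaving out single libraries kept the direction of HEN2 in the 4 comparisons where it was called and often lost the call. At 22 °C the log2 fold change stayed between -1.62 and -1.46, and the call was kept in the fits without replicate 3 of either genotype (edgeR adjusted p = 0.0271 for hen2-2 and 0.0159 for WT) and lost in those without replicate 1 or 2 of either (0.0541 to 0.0925). For hen2-2 at 20 °C it was kept in the fits without replicate 1 or 3 of se-2 hen2-2 or replicate 1 of se-2, and lost in the other 9 (edgeR adjusted p = 0.0111 to 0.187 over all 12). For se-2 hen2-2 against WT it was lost in the fits without replicate 1 or 2 of the double mutant or any WT library (edgeR adjusted p = 0.055 to 0.124). Against se-2 it was lost in the fits without those 2 libraries of the double mutant, any se-2 library or replicate 2 of hen2-2 (edgeR adjusted p = 0.0524 to 0.129). All 3 mutants were compared with the same WT libraries.

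**Figure D1:**
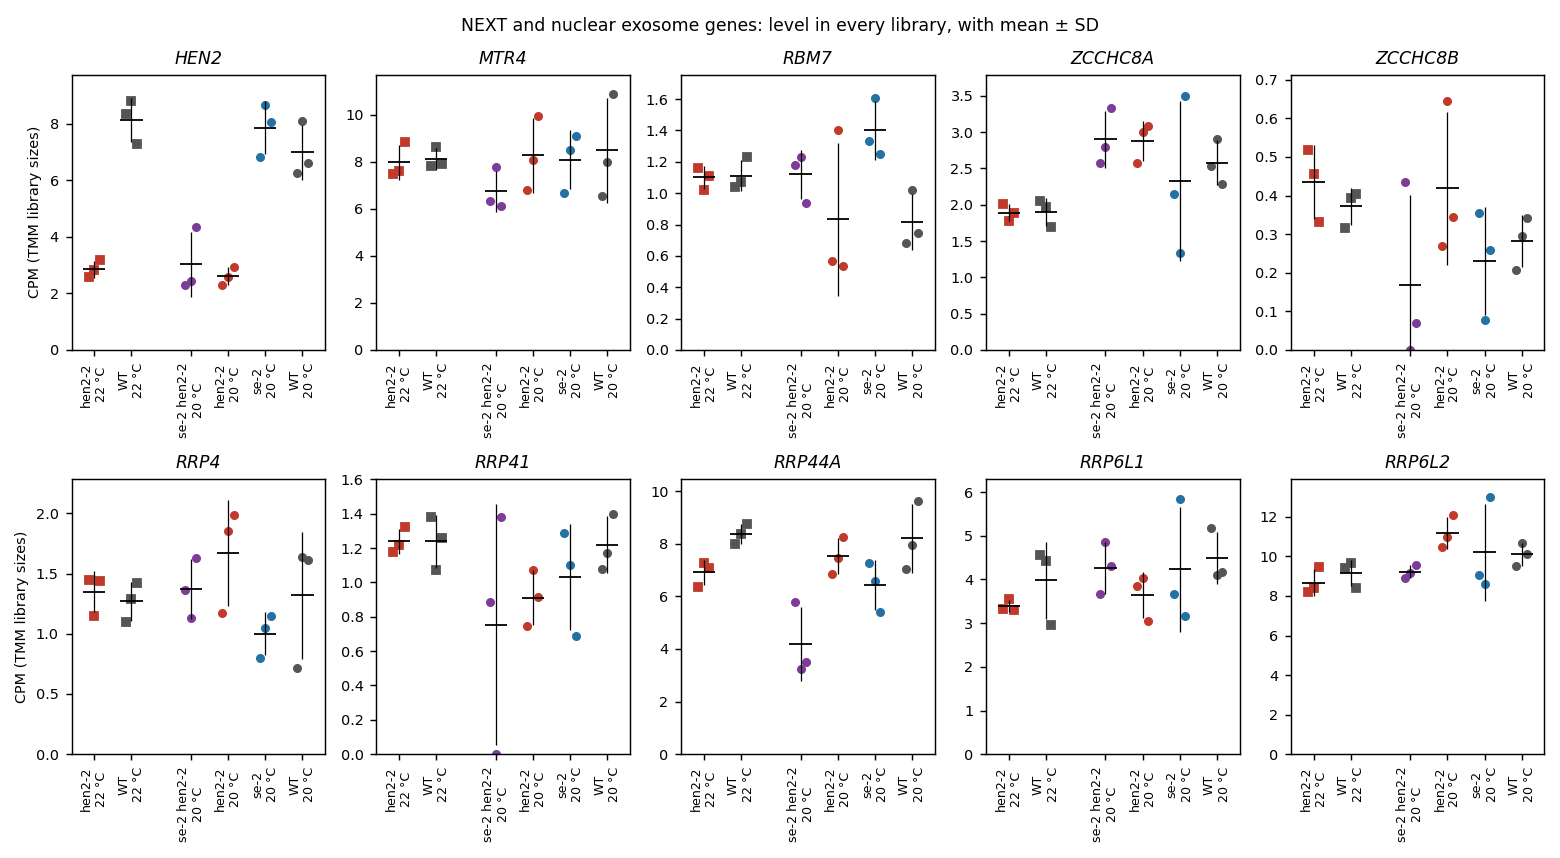
Level of each of the 10 genes in every library (CPM with TMM library sizes, linear axes from 0), with squares for 22 °C and circles for 20 °C, and a bar and line for the mean ± SD of 3 libraries, cut off at 0. HEN2 stood at 2.29 to 4.36 CPM in all libraries with the hen2-2 insertion and at 6.28 to 8.82 CPM in all others, RRP44A had its lowest 20 °C values in replicates 2 and 3 of the double mutant, and replicate 2 of the double mutant listed RRP41 and ZCCHC8B at 0.

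With all libraries and genotype as the only term, HEN2 was the only member that edgeR called in any comparison. In hen2-2 against WT at 22 °C, 1 of 10 members was called (edgeR), beside 1.35% of all genes tested. In hen2-2 against WT at 20 °C it was 1 of 10, beside 0.308%. In se-2 hen2-2 it was 1 of 10 against WT, beside 2.38%, and 1 of 10 against se-2, beside 0.884%. In se-2 against WT edgeR called 0 members, beside 0.324%, with 0 at an unadjusted p under 0.05 (7.09% of all genes) and 0 called by DESeq2 (1.75%). In se-2 hen2-2 against hen2-2 edgeR called 0 members, beside 0.529%, with 1 at an unadjusted p under 0.05 (10.1% of all genes), and DESeq2 called 1, RRP44A (2.66% of all genes). For the interaction edgeR called 0 members, beside 0.0154%, with 0 at an unadjusted p under 0.05 (5.6% of all genes) and 0 called by DESeq2 (0.725%).

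The median log2 fold change over the 10 members was -0.02 in hen2-2 at 22 °C, 0.00 in hen2-2 at 20 °C, -0.12 in se-2 and -0.23 for the double mutant against WT. It was -0.27 in se-2 hen2-2 against hen2-2 and -0.29 for the double mutant against se-2. Over all genes tested the median lay between -0.01 and 0.02 in each of these comparisons. The medians of the double mutant over the 10 members depended on its replicate 2, the library in which 2 members were at 0. Without it they were -0.13 against WT, -0.06 against hen2-2 and -0.11 against se-2. They also moved to -0.37 and -0.15 against WT without WT replicates 1 and 3, and to -0.16 and -0.17 against hen2-2 without hen2-2 replicates 2 and 3. Over all libraries, the median of the 9 members other than HEN2 was -0.13 against WT, -0.28 against hen2-2 and -0.26 against se-2. Without replicate 2 of the double mutant, the median of these 9 was unchanged at -0.13 against WT. It was -0.16 against hen2-2 and -0.08 against se-2. The leaf markers were also lowest in the double mutant, and their part in these medians was not tested.

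Another way to read the libraries is to count members for which all 3 libraries of a genotype lay above or below all 3 of the other. In hen2-2 against WT at 22 °C these were 2 members, HEN2 and RRP44A, both lower, beside 19.8% of all genes tested. In hen2-2 against WT at 20 °C they were 3, HEN2, RRP41 and RRP6L1, all lower, beside 12.9%, and in se-2 against WT 1, RBM7, higher, beside 12.9%. In se-2 hen2-2 they were 2 against WT (HEN2 and RRP44A, both lower), beside 21.0%, 2 against hen2-2 (RRP44A and RRP6L2, both lower), beside 15.8%, and 2 against se-2 (HEN2 and RBM7, both lower), beside 15.8%. With 10 members, 1 gene makes 10%, so each of these counts lies within 2 genes of the share over all genes.

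**Figure D2:**
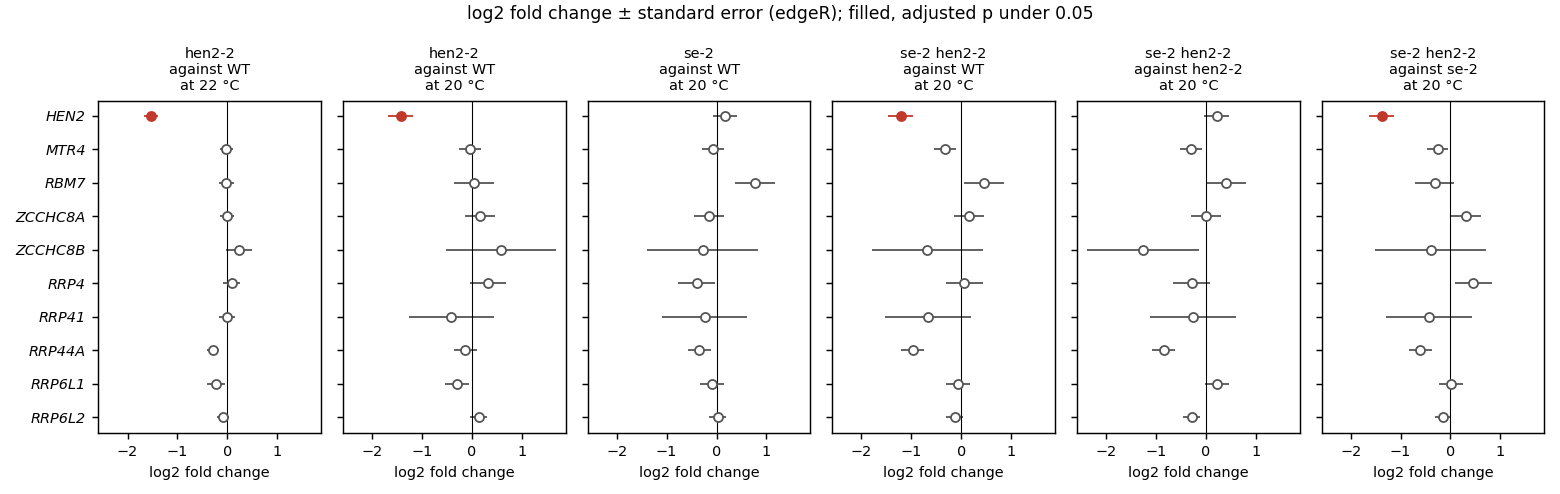
log2 fold change of each of the 10 genes in 6 comparisons (x axis, first genotype named over second; lines, standard error from edgeR), with filled points for an adjusted p under 0.05. HEN2 is the only filled point, in 4 panels, and ZCCHC8B and RRP41 have the widest lines at 20 °C, with standard errors of up to 1.12 and 0.86.

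MTR4, the nucleolar counterpart of HEN2, lies on chromosome 1 from 21984428 to 21990286 on the minus strand. It had 7.49, 7.61 and 8.85 CPM in hen2-2 at 22 °C, against 7.80, 8.64 and 7.92 CPM in WT. In the 20 °C libraries there were 6.34, 7.76 and 6.13 CPM in se-2 hen2-2, 6.80, 8.07 and 9.96 CPM in hen2-2 and 6.69, 8.50 and 9.08 CPM in se-2, against 6.54, 8.01 and 10.9 CPM in WT. The ranges overlapped in every comparison, and the log2 fold change was -0.02 in hen2-2 at 22 °C (edgeR adjusted p = 0.962, standard error 0.13) and -0.33 at most in size at 20 °C, in se-2 hen2-2 against WT (edgeR adjusted p = 0.558, standard error 0.22).

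The levels of the helicases relative to each other were compared as a log2 ratio within each library. HEN2 relative to MTR4 was -1.91 ± 0.06 in hen2-2 and -0.42 ± 0.11 in WT at 22 °C (from TPM, transcripts per M transcripts, which are divided by length; SD, n = 3 each), a HEN2 level of 0.266 and 0.746 times that of MTR4. At 20 °C, from counts that are not divided by length, the log2 ratio was -1.21 ± 0.63 in se-2 hen2-2, -1.66 ± 0.10 in hen2-2 and -0.04 ± 0.12 in se-2, against -0.26 ± 0.41 in WT (SD, n = 3 each). The hen2-2 ratios did not overlap with WT at either temperature, with differences of -1.49 and -1.40 (exact permutation test, two-sided, p = 0.1 each, the smallest that 3 against 3 libraries allow, and 0.4 after adjustment over 12 ratio tests). The double mutant overlapped with WT, since its replicate 3 stood at -0.49, and differed by -0.95 (exact permutation test, p = 0.2, adjusted p = 0.6).

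RBM7, on chromosome 4 from 6309393 to 6310910 on the minus strand, had 1.16, 1.02 and 1.11 CPM in hen2-2 at 22 °C, against 1.04, 1.07 and 1.23 CPM in WT. The values at 20 °C were 1.18, 1.23 and 0.938 CPM in se-2 hen2-2, 0.569, 1.40 and 0.535 CPM in hen2-2 and 1.33, 1.61 and 1.25 CPM in se-2, against 0.684, 1.02 and 0.749 CPM in WT. All 3 se-2 libraries lay above all 3 WT libraries and above all 3 libraries of the double mutant, while hen2-2 held both the lowest values and 1 of the highest. Neither difference passed the test, with log2 fold changes of 0.77 for se-2 against WT (edgeR adjusted p = 0.778, standard error 0.40) and -0.32 for se-2 hen2-2 against se-2 (edgeR adjusted p = 0.862, standard error 0.40).

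ZCCHC8A, on chromosome 5 from 15456520 to 15460767 on the plus strand, had 2.01, 1.78 and 1.89 CPM in hen2-2 at 22 °C, against 2.05, 1.97 and 1.69 CPM in WT. In the second experiment it had 2.57, 2.79 and 3.33 CPM in se-2 hen2-2, 2.57, 3.0 and 3.08 CPM in hen2-2 and 2.15, 1.33 and 3.50 CPM in se-2, against 2.54, 2.90 and 2.29 CPM in WT. The groups overlapped throughout and se-2 held both the lowest and the highest library at 20 °C. The log2 fold changes against WT were -0.01 in hen2-2 at 22 °C, 0.16 in se-2 hen2-2, 0.16 in hen2-2 at 20 °C and -0.15 in se-2, with standard errors of 0.14 at 22 °C and 0.30 at 20 °C.

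ZCCHC8B, on chromosome 1 from 25140815 to 25144049 on the plus strand, had the fewest reads of the 10 genes, with 26 to 52 estimated reads per library at 22 °C and 0 to 99 counts at 20 °C. It had 0.517, 0.455 and 0.331 CPM in hen2-2 at 22 °C, against 0.317, 0.393 and 0.404 CPM in WT. The 20 °C experiment gave 0.434, 0 and 0.0708 CPM in se-2 hen2-2, 0.270, 0.644 and 0.344 CPM in hen2-2 and 0.354, 0.0774 and 0.260 CPM in se-2, against 0.208, 0.296 and 0.342 CPM in WT. Values within se-2 and within the double mutant differed more from each other than the genotypes did, and no comparison passed the test.

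Replicate 2 of se-2 hen2-2 listed ZCCHC8B and RRP41 at 0, and also RRP40A, which encodes a cap subunit of the exosome. It was the smallest library, with 47.7 M counts, and listed 1379 of the 19454 genes tested at 0 (7.09%), compared with 138 to 1395 genes in the 12 libraries of that experiment. A count of 0 in this library allows a level of up to 0.0628 counts per M counts of its total, by counting error alone. Without this library the log2 fold change of se-2 hen2-2 against WT was -0.13 instead of -0.68 for ZCCHC8B (standard errors 0.93 and 1.11) and -0.11 instead of -0.67 for RRP41 (standard errors 0.39 and 0.86), and neither value passed the test with or without it (edgeR adjusted p = 0.986 and 0.855 for ZCCHC8B and 0.967 and 0.799 for RRP41).

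The balance of the zinc-knuckle genes was taken in the same way. ZCCHC8A had 3.43 times the TPM of ZCCHC8B in hen2-2 and 3.97 times in WT at 22 °C, a difference of -0.21 on the log2 scale (exact permutation test, p = 0.5, adjusted p = 0.75 over 12 ratio tests). In counts at 20 °C the difference from WT was -0.34 in hen2-2 and 0.27 in se-2 (exact permutation test, p = 0.5 and 0.6), and the libraries overlapped. In the double mutant only 2 libraries gave a ratio, at 5.93 and 47.0, and they bracketed the 3 WT libraries at 12.2, 9.82 and 6.71.

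The exosome core was represented by a cap and a ring subunit. RRP4, a cap protein with RNA-binding domains, lies on chromosome 1 from 824517 to 826399 on the plus strand. It had 1.45, 1.15 and 1.44 CPM in hen2-2 at 22 °C, against 1.10, 1.29 and 1.42 CPM in WT. At 20 °C it had 1.36, 1.13 and 1.63 CPM in se-2 hen2-2, 1.17, 1.85 and 1.99 CPM in hen2-2 and 0.801, 1.05 and 1.15 CPM in se-2, against 0.714, 1.64 and 1.61 CPM in WT. The genotypes overlapped in every comparison with WT, replicate 1 of WT was the lowest library at 20 °C, and no comparison passed the test.

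RRP41, the ring subunit that keeps phosphorolytic activity in plants, lies on chromosome 3 from 22801215 to 22804104 on the minus strand. It had 1.18, 1.22 and 1.32 CPM in hen2-2 at 22 °C, against 1.38, 1.07 and 1.26 CPM in WT. In the 20 °C libraries there were 0.884, 0 and 1.38 CPM in se-2 hen2-2, 0.749, 1.07 and 0.917 CPM in hen2-2 and 1.29, 1.10 and 0.688 CPM in se-2, against 1.08, 1.17 and 1.40 CPM in WT. The hen2-2 libraries lay just below the WT libraries at 20 °C (highest 1.07, lowest 1.08 CPM) and overlapped with them at 22 °C. The log2 fold change in hen2-2 was -0.41 at 20 °C (edgeR adjusted p = 1.0, standard error 0.85) and 0.00 at 22 °C (edgeR adjusted p = 0.997, standard error 0.16).

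RRP44A, on chromosome 2 from 7609236 to 7616342 on the minus strand, encodes the processive exoribonuclease of the nuclear exosome and showed the largest difference among members other than HEN2 for which no library was at 0. At 22 °C it had 6.36, 7.27 and 7.08 CPM in hen2-2, against 7.99, 8.37 and 8.74 CPM in WT. The values at 20 °C were 5.78, 3.25 and 3.52 CPM in se-2 hen2-2, 6.87, 7.46 and 8.24 CPM in hen2-2 and 7.28, 6.58 and 5.41 CPM in se-2, against 7.03, 7.97 and 9.63 CPM in WT. All 3 libraries of the double mutant lay below all WT and all hen2-2 libraries, and they overlapped with se-2 only through replicate 1.

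For se-2 hen2-2 against WT the log2 fold change of RRP44A was -0.97 (standard error 0.23), and its adjusted p of 0.0564 in edgeR just missed the threshold. DESeq2, which called 6.19% of all genes tested in this comparison, gave an adjusted p of 0.00531 and so called 2 of 10 members, HEN2 and RRP44A. Without replicate 1 of the double mutant the log2 fold change was -1.27 (edgeR adjusted p = 0.0129), and without replicate 2 it was -0.81 (edgeR adjusted p = 0.216). Replicate 1 was the only library of the double mutant with over 100 M counts. Among libraries of that size RRP44A had 5.78 CPM in se-2 hen2-2, against 7.03 and 7.97 CPM in WT, and among the smaller ones 3.25 and 3.52 CPM in se-2 hen2-2, against 9.63 CPM in WT. With a term for library size in the fit the log2 fold change was -0.94 (edgeR adjusted p = 0.0416). The leaf markers were also lower in the double mutant, at 1980 to 2220 CPM, against 2750 to 3770 CPM in WT, and their part in this result was not tested.

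Against the single mutants RRP44A differed in the double mutant by -0.84 from hen2-2 (edgeR adjusted p = 0.185, standard error 0.23, DESeq2 adjusted p = 0.0436, and edgeR adjusted p = 0.0455 without replicate 1 of the double mutant) and by -0.61 from se-2 (edgeR adjusted p = 0.334, standard error 0.23, DESeq2 adjusted p = 0.226). The single mutants differed from WT by -0.13 in hen2-2 and -0.35 in se-2 at 20 °C, and the interaction was -0.49 (edgeR adjusted p = 1.0, standard error 0.33). In hen2-2 at 22 °C the log2 fold change was -0.28 (edgeR adjusted p = 0.384, standard error 0.12), although the libraries did not overlap. Whether lower RRP44A in the double mutant was called against WT and against hen2-2 thus varied with the tool, the terms of the fit and the libraries, and neither tool called it against se-2 or in the interaction.

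RRP6L1 and RRP6L2 are nuclear exoribonucleases related to RRP6 of yeast. RRP6L1, on chromosome 1 from 20322964 to 20328238 on the plus strand, had 3.32, 3.55 and 3.30 CPM in hen2-2 at 22 °C, against 4.55, 4.42 and 2.96 CPM in WT. In the second experiment it had 3.67, 4.85 and 4.30 CPM in se-2 hen2-2, 3.84, 4.03 and 3.04 CPM in hen2-2 and 3.67, 5.85 and 3.16 CPM in se-2, against 5.18, 4.11 and 4.18 CPM in WT. The hen2-2 libraries lay below those of WT at 20 °C by a narrow margin (log2 fold change -0.30, edgeR adjusted p = 1.0, standard error 0.24) and overlapped with replicate 3 of WT at 22 °C.

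RRP6L2, on chromosome 5 from 14029574 to 14035493 on the minus strand, had 8.22, 8.38 and 9.45 CPM in hen2-2 at 22 °C, against 9.40, 9.68 and 8.40 CPM in WT. The 20 °C experiment gave 8.92, 9.17 and 9.58 CPM in se-2 hen2-2, 10.5, 11.0 and 12.1 CPM in hen2-2 and 9.08, 8.62 and 13.0 CPM in se-2, against 9.53, 10.7 and 10.1 CPM in WT. All double mutant libraries lay below all hen2-2 libraries and none of the comparisons passed the test (se-2 hen2-2 against hen2-2, log2 fold change -0.28, edgeR adjusted p = 0.655, standard error 0.17). RRP6L1 relative to RRP6L2 was lower in hen2-2 than in WT at 20 °C without overlap, with 0.323 and 0.442 as ratios and a difference of -0.45 on the log2 scale (exact permutation test, p = 0.1, adjusted p = 0.4). At 22 °C the same difference was -0.12 and the libraries overlapped (exact permutation test, p = 0.5, adjusted p = 0.75).

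Levels per length can be compared between genes at 22 °C, where TPM values are given. In WT the mean TPM was 1.75 ± 0.365 for RRP6L2, 1.54 ± 0.174 for RRP44A, 1.40 ± 0.210 for MTR4 and 1.05 ± 0.231 for HEN2 (SD, n = 3). RBM7 followed with 0.984 ± 0.0862, RRP6L1 with 0.945 ± 0.336, RRP41 with 0.755 ± 0.187 and RRP4 with 0.608 ± 0.0174 TPM (SD, n = 3). The zinc-knuckle genes came last, with 0.540 ± 0.132 TPM for ZCCHC8A and 0.133 ± 0.00877 TPM for ZCCHC8B (SD, n = 3). The 4 highest means were those of RRP6L2, RRP44A and both helicases.

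Neighbours in that order overlapped in their WT libraries, with the exception of RRP41 and RRP4 and of ZCCHC8A and ZCCHC8B. When TPM was rescaled to nuclear genes alone the order of all 10 was kept, and only ZCCHC8A and ZCCHC8B still did not overlap. Of all nuclear genes in the table, 82.6% had a lower WT level than RRP6L2, 73.8% a lower one than HEN2 and 47.0% a lower one than ZCCHC8B. In hen2-2 HEN2 stood at 0.302, 0.296 and 0.326 TPM, against 1.25, 1.11 and 0.796 TPM in WT, below every member except ZCCHC8B.

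**Figure D3:**
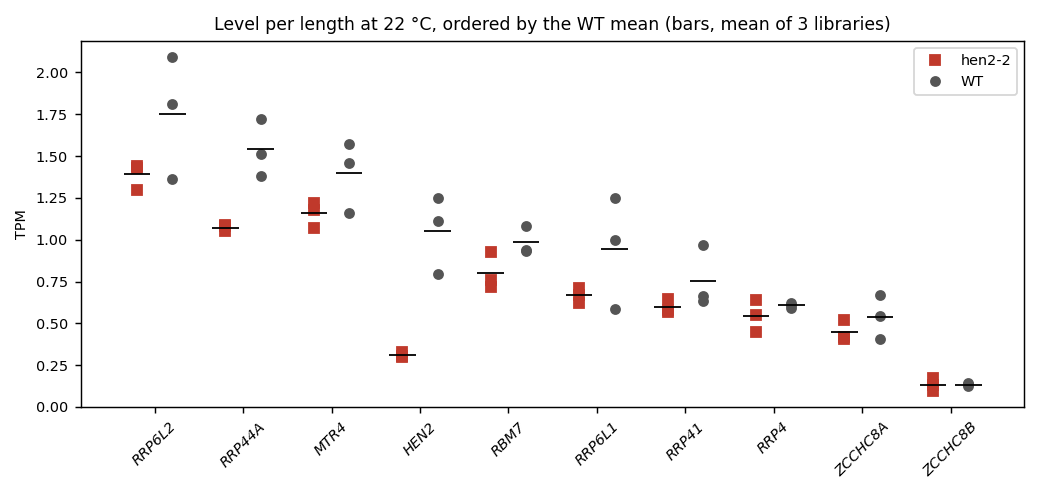
TPM of the 10 genes in the libraries at 22 °C (y axis), with red squares for hen2-2, grey circles for WT and a bar for the mean of 3 libraries, ordered by the WT mean. HEN2 was the fourth gene by WT level at 1.05 TPM and stood at 0.308 TPM in hen2-2. TPM is relative to all transcripts of a library, chloroplast ones included, so genotypes are compared in CPM with TMM library sizes and not here.

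The transcripts of these genes were listed separately at 22 °C. HEN2, MTR4, RBM7, RRP4 and RRP6L2 had a single transcript each, and ZCCHC8A, ZCCHC8B, RRP41, RRP44A and RRP6L1 had 15 isoforms between them, of which 9 held at least 10% of their gene on average. All 20 matched a RefSeq transcript of the gene in length. Of 14 isoforms with enough reads to be tested, 1 was called, the transcript of HEN2 (log2 fold change -1.54, edgeR adjusted p = 0.0460, standard error 0.15), beside 0.226% of all transcripts tested. With a term for the replicate it was not called (edgeR adjusted p = 0.0785), and 0 were called in any fit that left out a library.

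ZCCHC8A was shared between isoform 1, with 9 exons, and isoform 3, in which 1 intron of 415 bases is kept. This intron is on the plus strand of chromosome 5 from 15457702 to 15458116, between exons 2 and 3 of isoform 1. Reads across its ends tell isoform 1 from isoform 3, so its 5′ and 3′ borders are shown with the exon bases in capitals (RefSeq, TAIR10.1; chr5:15457687-15457716 and chr5:15458102-15458131).
5′ border: CTTTGGATGTTAGTTgtatcctttcttttg
3′ border: aattccttatgtcagCTAAAGCGGGTGTTA
Isoform 3 has a shorter coding sequence, 1290 bases compared with 1599 in isoform 1. Its whole length is 2193 bases, against 2079 in isoform 1. The kept intron of 415 bases is longer than that difference, so these isoforms differ elsewhere too, and their estimated shares can also rest on that sequence. Isoform 3 held 11.3, 25.8 and 26.4% of the ZCCHC8A TPM in hen2-2, against 29.3, 25.9 and 17.3% in WT. The genotypes overlapped, with means of 21.2 ± 8.53% and 24.1 ± 6.17% (SD, n = 3 each; exact permutation test, p = 0.6, adjusted p = 1.0 over 9 isoforms), and 69.3 to 88.7% in hen2-2 and 70.7 to 82.7% in WT came from isoform 1.

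RRP41 had the most variable isoforms. Isoform 1 held 7.41, 53.1 and 96.2% of the RRP41 TPM in hen2-2, against 71.8, 71.0 and 86.7% in WT, and isoform 2 held the rest. Both have the same 726 coding bases and differ in exons at the 5′ end. The hen2-2 libraries lay on both sides of WT, and the difference of -24.3 percentage points was within their spread (SD 44.4 in hen2-2 and 8.88 in WT, n = 3 each; exact permutation test, p = 0.5, adjusted p = 1.0). These shares rest on 107 to 144 estimated reads per hen2-2 library and 71 to 122 per WT library.

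In the nucleases and in ZCCHC8B the isoform shares overlapped as well. RRP44A isoform 1 held 94.6 to 100% in hen2-2 and 98.4 to 99.1% in WT. RRP6L1 was divided between isoform 1, with 52.1, 70.1 and 42.3% in hen2-2, against 58.7, 35.2 and 61.3% in WT, isoform 2, with 34.7, 21.1 and 42.3% in hen2-2, against 32.0, 35.5 and 16.4% in WT, and isoform 4, with 13.3, 8.79 and 15.4% in hen2-2, against 9.37, 28.2 and 13.4% in WT. ZCCHC8B came from isoform 1 in all libraries but replicate 3 of WT, where isoform 3 was given 30.1%. None of the 9 shares could pass the exact permutation test, since 3 against 3 libraries allow no p under 0.1. The test therefore cannot decide whether shares differ between the genotypes (exact permutation tests, smallest p = 0.5, adjusted p = 1.0).

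**Figure D4:**
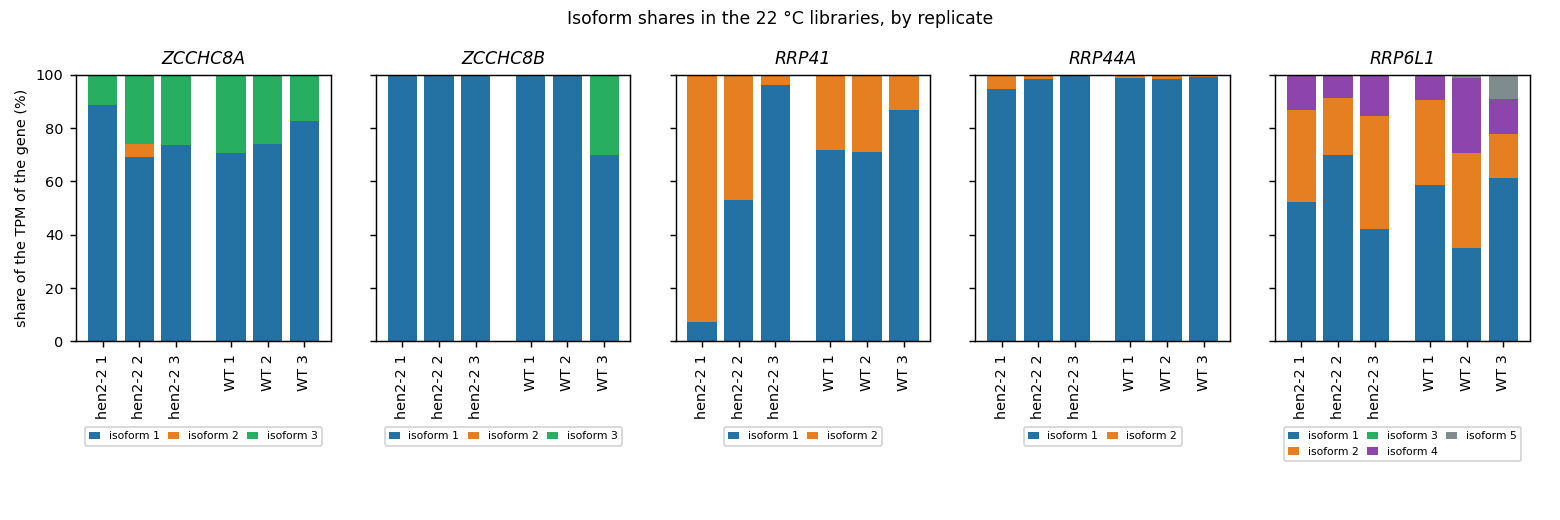
Share of each isoform in the TPM of its gene (y axis, percent) in every 22 °C library, for the 5 members with more than 1 transcript, with hen2-2 on the left and WT on the right of each panel. RRP41 isoform 1 ranged from 7.41 to 96.2% across hen2-2 libraries, while RRP44A isoform 1 was at 94.6% or above in all 6 libraries.

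Of the 10 members, 6 overlap a gene on the opposite strand, by 6 to 154 bases (HEN2, MTR4, RBM7, ZCCHC8A, RRP41 and RRP44A), and none overlaps a gene on its own strand. The libraries were stranded, but whether the counting used strand is not given in the sources used here, so reads in these bases may belong to either gene.

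Across the 12 libraries at 20 °C, each gene was centred on its mean log2 CPM and compared with HEN2. The 3 most similar of 19453 genes were AT4G05631, AT5G44800 and AT1G03210, with root mean square differences of 0.372, 0.386 and 0.417, where a gene with no variation would be at 0.755. AT4G05631 averaged 4.69 CPM in se-2 hen2-2, 5.35 in hen2-2 and 9.88 in se-2, against 9.43 CPM in WT. This is a description over libraries that share 4 genotypes, and no other member was among the 3.

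A list of 19 other exosome and cofactor genes, all of them tested, places the members in their surroundings. In hen2-2 at 22 °C 2 of 19 were called (edgeR), both higher, RRP46 and SOP1, beside the same 1.35% of all genes. In se-2 hen2-2 against WT 2 of 19 were called, RRP46, higher, and SE, lower, beside 2.38% of all genes. In se-2 against WT 1 was called, SE, beside 0.324%. DESeq2 called SOP1 as well in se-2 hen2-2 against WT, 3 of 19, beside 6.19% of all genes. In hen2-2 at 20 °C edgeR called 0 of 19, with 2 at an unadjusted p under 0.05 (5.27% of all genes), RRP46 and SOP1, both of which DESeq2 called (1.34% of all genes). In se-2 hen2-2 against hen2-2 and against se-2 edgeR called 0, with 3 and 2 at an unadjusted p under 0.05 (10.1 and 10.9% of all genes), and DESeq2 called 1 each (2.66 and 3.16%). For the interaction edgeR called 0, beside 0.0154%, with 1 at an unadjusted p under 0.05 (5.6% of all genes), and DESeq2 called 0 (0.725%). The median log2 fold change over the list was 0.04 in hen2-2 at 22 °C and 0.11 at 20 °C, 0.04 in se-2 and 0.16 for the double mutant against WT.

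RRP46, a ring subunit of the exosome core, was higher in every mutant library than in every WT library. At 22 °C it had 3.02, 2.96 and 2.95 CPM in hen2-2, against 1.52, 1.51 and 1.23 CPM in WT. At 20 °C it had 3.55, 4.21 and 4.43 CPM in se-2 hen2-2, 2.46, 3.40 and 3.19 CPM in hen2-2 and 2.43, 4.41 and 2.60 CPM in se-2, against 1.01, 1.54 and 1.11 CPM in WT. It rose by a log2 fold change of 1.07 in hen2-2 at 22 °C (edgeR adjusted p = 0.0220, standard error 0.14) and of 1.73 in se-2 hen2-2 (edgeR adjusted p = 0.00793, standard error 0.28). In the single mutants at 20 °C the log2 fold changes were 1.30 in hen2-2 (edgeR adjusted p = 0.0989, standard error 0.28) and 1.36 in se-2 (edgeR adjusted p = 0.0765, standard error 0.28), and the interaction was -0.93 (edgeR adjusted p = 0.835, standard error 0.38). DESeq2 gave adjusted p of 0.00377 in hen2-2 and 0.00181 in se-2. At 22 °C the call was kept only in the fit without WT replicate 3 (edgeR adjusted p = 0.0371 to 0.136 over the 6 fits that left out a library), and in se-2 hen2-2 in all 12 such fits (0.00617 to 0.0424). The part of the lower leaf markers of the double mutant in its RRP46 and SOP1 levels was not tested.

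SOP1, a zinc finger cofactor of the nuclear exosome found in the nucleoplasm with HEN2, was higher where HEN2 was mutated. At 22 °C it had 31.1, 28.3 and 32.5 CPM in hen2-2, against 17.6, 16.6 and 15.1 CPM in WT. In the 20 °C libraries there were 17.1, 22.5 and 27.7 CPM in se-2 hen2-2, 29.3, 30.4 and 27.2 CPM in hen2-2 and 13.1, 16.6 and 14.2 CPM in se-2, against 14.6, 13.9 and 15.4 CPM in WT. Within each experiment the libraries with the hen2-2 insertion lay above all WT libraries, and se-2 overlapped with WT. It rose by a log2 fold change of 0.90 at 22 °C (edgeR adjusted p = 0.0328, standard error 0.13), but passed the test in 0 of the 6 fits that left out a library (0.0601 to 0.164). At 20 °C the log2 fold change was 0.98 in hen2-2 (edgeR adjusted p = 0.0541, standard error 0.18, DESeq2 adjusted p = 9.87e-05), 0.62 in se-2 hen2-2 (edgeR adjusted p = 0.117, standard error 0.18, DESeq2 adjusted p = 0.0306) and 0.00 in se-2.

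Replicate numbers paired the libraries of hen2-2 and WT. In hen2-2 against WT, counted per gene, a term for the replicate changed calls in the list of other genes but not among the members. At 22 °C, where that fit called 12.3% of all genes tested, 4 of 19 were called, RRP46, SOP1, PABN3 and SOV, and 1 of 10 members, HEN2 (log2 fold change -1.51, edgeR adjusted p = 0.00131). PABN3, a nuclear poly(A)-binding protein, had 4.63, 5.47 and 5.89 CPM in hen2-2, against 3.60, 3.51 and 4.01 CPM in WT (log2 fold change 0.52, edgeR adjusted p = 0.0210 with the term and 0.155 without it). SOV, a cytoplasmic exoribonuclease related to RRP44A, had 8.83, 8.35 and 7.49 CPM in hen2-2, against 11.8, 9.47 and 10.9 CPM in WT (log2 fold change -0.38, edgeR adjusted p = 0.0489 with the term and 0.285 without it). At 20 °C the fit with the term called 0.92% of all genes tested in hen2-2, 1 of 10 members, HEN2 (edgeR adjusted p = 0.00463), and 2 of 19 other genes, RRP46 and SOP1 (edgeR adjusted p = 0.0104 and 0.00995).

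**Figure D5:**
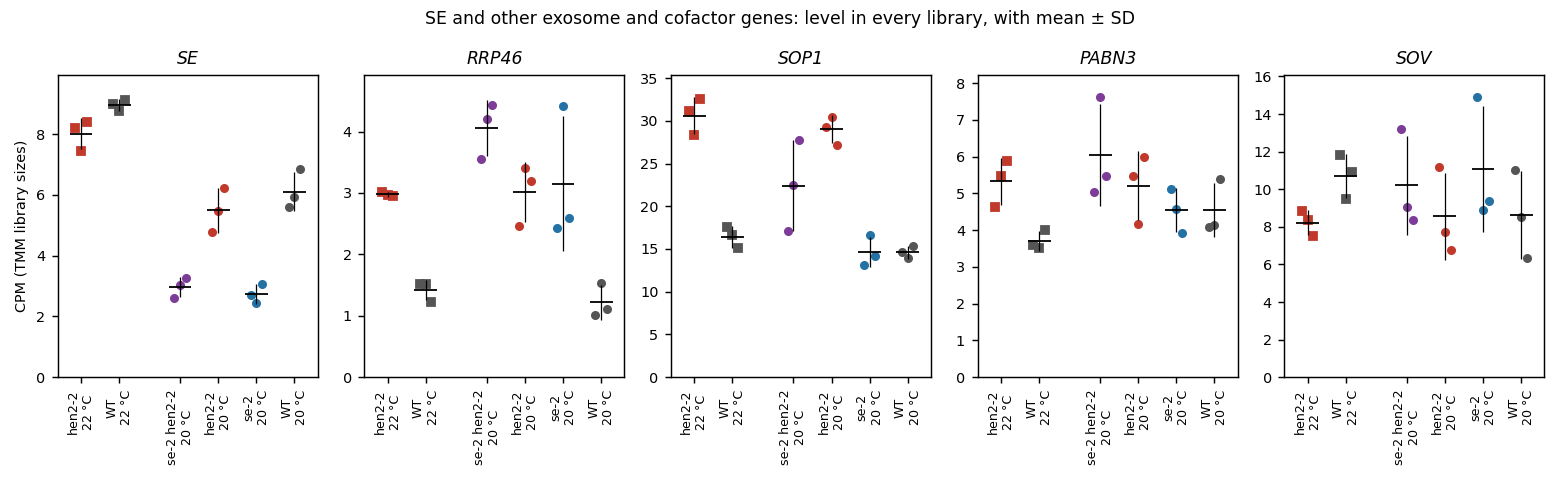
Level of SE and of the 4 other exosome and cofactor genes named in the text in every library (CPM with TMM library sizes, linear axes from 0), with squares for 22 °C and circles for 20 °C, and a bar and line for the mean ± SD of 3 libraries. RRP46 stood at 2.43 CPM or more in all mutant libraries and at 1.54 CPM or less in WT, SOP1 stood above WT in the libraries with the hen2-2 insertion within each experiment, and SE was at 2.45 to 3.26 CPM in the libraries with the se-2 insertion.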

How the data were processed

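Levels of 10 genes were taken from 18 RNA-seq libraries, and 12 small RNA libraries of the same study were not analysed here. The members and gene lists were chosen with earlier results of these data known. Per the labels and the methods of the study, reads lost their first 12 nt, were cleared of adapters and ribosomal RNA and were aligned to TAIR10 with HISAT2.

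At 20 °C the authors deposited counts per gene, made with StringTie and its helper program, whose assumed read length is not given in the sources used here. At 22 °C the authors deposited, for each transcript, estimated counts and a TPM value in the layout that Salmon writes, and its version and settings are not given in the sources used here. Estimated counts were summed per gene and rounded. Entries for 2 spike sequences were left out.

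Tests used edgeR 4.0.16 in R 4.3.3 with TMM scaling, its filter for expressed genes and genotype as the only term, two-sided, with limma 3.58.1 and DESeq2 1.42.0 as alternatives. The experiments were fitted separately. Ratios and isoform shares were compared with exact permutation tests (scipy 1.17.1). The scripts were checked on simulated counts with known changes. Counting error of a count of 0 was taken as 3 counts, with each count taken as a read, and such floors cover counting error only.

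Genes named in the text are all members, SE, those of the list of other exosome and cofactor genes called in any comparison, also with a replicate term where numbers pair the libraries, isoforms with at least 10% of their gene, and the 3 genes most like HEN2. SOP1, RRP46, SE, PABN3 and SOV came from that rule. Alternatives were no filter, RLE size factors, DESeq2, a replicate term in edgeR or DESeq2, a term for libraries of over 100 M (M, 1000000) counts, the compared genotypes alone, limma on log2(TPM + 1) and log2(TPM + 0.1), and each library left out in turn.

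Pairing by replicate number was checked on the deviations of libraries from their genotype mean, since the labels do not say what a number shares. Correlations of same-numbered libraries were 0.35 to 0.69 for hen2-2 and WT at 22 °C, 0.28 to 0.50 for hen2-2 and WT at 20 °C and 0.13 to 0.53 for se-2 hen2-2 and se-2, all over the minimum of 0.1. For the other pairs of genotypes the lowest was 0.01 to 0.03, in replicate 2, and the highest 0.38 to 0.52, in replicate 1.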

Additional observations from a re-analysis of the deposited data

How the results depend on the processing

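HEN2 stayed lower in every alternative of the 4 comparisons in which it was called. Of 1875 values for 15 single genes in 7 comparisons, 1790 kept their side of the threshold, 53 lost a call and 32 gained one. Most of these values belonged to results not called in the main fit, which could not lose a call. HEN2 kept its call in 8 of 12 alternatives in hen2-2 at 22 °C and 9 of 19 at 20 °C. In the double mutant HEN2 kept it in 13 of 19 against WT and 12 of 19 against se-2. Against WT, SE kept its call in 16 of 19 in the double mutant and 11 of 19 in se-2. RRP46 kept it in 5 of 12 at 22 °C and 19 of 19 in the double mutant, and SOP1 in 4 of 12 at 22 °C. No gene called in the main fit turned direction. Differences that were not called could change sign, such as MTR4 in hen2-2 at 20 °C, with log2 fold changes of -0.20 to 0.18 over the alternatives. A smaller fit has fewer residual degrees of freedom, and the cause of other changes was not tested.

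Of the 10 members, with compared genotypes alone 0 were called in hen2-2 against WT at 20 °C, 0 in the double mutant against WT and 0 in the double mutant against se-2, in place of 1 each. In se-2 hen2-2 against WT 2 were called (RRP44A being the second) by DESeq2, with the replicate block in edgeR or DESeq2 and with a term for libraries over 100 M counts. Of the 19454 genes tested, DESeq2 called 6.19% there. The replicate block called 868 higher and 696 lower in edgeR and 1359 higher and 1205 lower in DESeq2. The term for libraries over 100 M counts called 526 higher and 284 lower. In se-2 hen2-2 against hen2-2 1 was called by DESeq2, with or without that block, in place of 0. DESeq2 called 2.66% of all genes in that comparison without the block, and 722 higher and 759 lower with it. With each library left out in turn 0 to 1 were called in each of these and in hen2-2 at 22 °C.

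Of the 19 other genes, hen2-2 against WT at 22 °C had 4 with the replicate block, 0 with limma on log2(TPM + 1) or log2(TPM + 0.1) and 0 to 1 with a library left out, in place of 2. The block called 12.3% of all genes there. hen2-2 against WT at 20 °C had 2 with DESeq2, the replicate block or both, 1 with the term for libraries over 100 M counts and 0 to 1 with a library left out, in place of 0. Of all genes, DESeq2 called 1.34%, the block 0.92%, both 397 higher and 123 lower, and the term 133 higher and 5 lower. se-2 against WT had 2 with DESeq2, the replicate block or both, 0 with compared genotypes alone and 0 to 1 with a library left out, in place of 1. Of all genes, DESeq2 called 1.75%, the block 207 higher and 190 lower, and both 486 higher and 528 lower. se-2 hen2-2 against WT had 3 with DESeq2, 4 with the replicate block in edgeR or DESeq2, 1 with compared genotypes alone and 1 to 3 with a library left out, in place of 2. Of all genes, DESeq2 called 6.19%, the block in edgeR 868 higher and 696 lower, and the block in DESeq2 1359 higher and 1205 lower. se-2 hen2-2 against hen2-2 had 1 with DESeq2, the replicate block, both, or the term for libraries over 100 M counts, and the double mutant against se-2 had 1 with DESeq2 and 2 with DESeq2 and the replicate block, in place of 0. Against hen2-2, DESeq2 called 2.66% of all genes, the block 363 higher and 355 lower, and both 722 higher and 759 lower. The term for libraries over 100 M counts called 179 higher and 131 lower there. Against se-2, DESeq2 called 3.16% of all genes, and 886 higher and 635 lower with the block. Isoforms of members called at 22 °C were 0 with no filter, 0 with the replicate block and 0 with any library left out, in place of 1.

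The replicate block changed no other call of a member in the paired comparisons. In se-2 hen2-2 against WT it gave RRP44A an edgeR adjusted p of 0.0200. Same-numbered libraries of these genotypes correlated at 0.38, 0.01 and 0.14 in replicates 1, 2 and 3, so not all were over the minimum of 0.1. Over all genes it moved the calls at 22 °C to 1382 higher and 1012 lower, where 214 were higher and 49 lower without it, and DESeq2 called 617 higher and 360 lower. At 20 °C, where edgeR called 58 higher and 2 lower in hen2-2, DESeq2 called 228 higher and 33 lower. ZCCHC8B had 0 to 99 counts per library at 20 °C, so counting error adds to its values. Its standard errors reached 1.12 at 20 °C, against 0.26 at 22 °C, where it had 26 to 52 estimated reads. The cause of the wider spread at 20 °C was not tested.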

Other observations

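RRP46 and SOP1 have several transcripts each, and their values at 22 °C were looked at after the gene-level change was seen. Of the 7 RRP46 isoforms, isoform 4 had 0.509, 0.609 and 0.552 TPM in hen2-2, against 0.402, 0.358 and 0.282 TPM in WT, and the genotypes did not overlap. Isoform 6 had 0.187, 0.282 and 0.204 TPM in hen2-2, against 0, 0.0508 and 0.0353 TPM in WT, again without overlap. Neither was called (edgeR adjusted p = 0.247 and 0.408). Isoform 1 overlapped, with 0.481, 0.231 and 0.304 TPM in hen2-2, against 0.494, 0.242 and 0.187 TPM in WT.

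Of the 9 SOP1 isoforms, isoform 1 had 1.65, 1.32 and 1.42 TPM in hen2-2, against 1.12, 0.884 and 0.643 TPM in WT, and was not called (log2 fold change 0.96, edgeR adjusted p = 0.0826). How reads were divided between transcripts that share most of their exons was an estimate made by the authors' tool, and no read positions were analysed here.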
